A study of Oryzias latipes with 10 samples.

Results

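*sox3*, *otx2b* and *prdm1a* are transcription factor genes that the study placed among its ectoderm markers. They are described here in all 10 RNA-seq libraries of medaka embryos as the rows of the count table whose Ensembl identifiers the study pairs with these names: *sox3* is ENSORLG00000001780, *otx2b* is ENSORLG00000023080 and *prdm1a* is ENSORLG00000015684. They are 3 of 24365 genes in the table, and all 3 were among the 16513 that could be tested (mean count of 10 or more over the libraries). Set apart were 27 other markers that the study listed, 10 genes per germ layer with these members included.

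The neural plate is the part of the ectoderm that forms the brain and spinal cord, and its cells are kept from an epidermal fate while BMP signalling is low on the dorsal side. *sox3* encodes a SoxB1 factor that is expressed throughout the early neural plate and holds cells in a neural progenitor state. *otx2b* encodes a homeodomain factor of the future forebrain and midbrain, which in early vertebrate embryos is also expressed in anterior mesendoderm. *prdm1a* encodes a zinc finger repressor, known as Blimp1 in mammals. In zebrafish it acts at the neural plate border, where neural crest and sensory neurons arise, and it is also expressed in the prechordal plate and in muscle precursors, so that its label as a neural plate gene covers only a part of where it is used. The libraries were made from whole embryos, and a gene expressed in several tissues is measured as their sum.

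The embryos were at stage 16, late gastrulation, when the axis is being assembled. The *yap* double mutants (3 libraries) carry mutations in both medaka Yap genes, *yap1* and its paralog *yap1b*, the *yap* single mutants (3 libraries) carry the *yap1* mutation alone, and the wild type (WT, 4 libraries) carries neither. The mutant strains were yap1Δ7pb and yap1bΔ136pb, and iCab is the wild-type strain of the study. Embryos were homogenized one by one, genotyped from their DNA and pooled by genotype. A p-value here therefore sets a difference between groups against the spread between such pools. The comparison asks whether loss of Yap changed the transcript levels of these genes. In such bulk samples, fewer cells expressing a gene and less RNA per cell cannot be told apart.

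Gene counts summed to between 22053738 and 38383959 per library. *yap1* itself averaged 94.5 ± 10.2 CPM (the gene's reads per 1000000 gene reads of the library, scaled by TMM factors) in the double mutants, 85.2 ± 5.97 in the single mutants and 282 ± 5.20 in WT 1–3 (SD, n = 3 each). *yap1b* averaged 27.6 ± 1.69 CPM in the double mutants, 66.7 ± 8.33 in the single mutants and 73.1 ± 2.78 in WT 1–3 (SD, n = 3 each). The fourth WT library, WT 4, stood apart from WT 1–3: its *yap1* was lower, at 168 CPM, and its *yap1b* was higher, at 83.2 CPM. Its correlation with WT 1–3 across genes was 0.951 to 0.952, against 0.989 to 0.990 among WT 1–3. Replicates also differed in the mutants, with correlations of 0.956 to 0.985 within the single mutants and 0.968 to 0.983 within the double mutants. Correlations of WT 4 with the double mutants were 0.958 to 0.970. The study corrected batch effects without naming the batches. Part of its tabulated marker values place WT 4 with the double mutants. On these the main model holds the genotype and an assumed set of libraries: the double mutants with WT 4, and the single mutants with WT 1–3. Other markers do not group WT 4 in this way. For *gata2a*, *tp63*, *bmp2b* and *foxi1* the log2 of WT 4 over WT 1–3 was only −0.06, −0.04, −0.02 and −0.10. No label gives this set or says what it stands for. The marker values it was read from include those of the 3 genes described here. This leaves WT 4 as the only WT library behind the double mutant values, with a spread borrowed from the other groups. The tests of the 3 genes and the counts of other markers in the mutants are given also without the set and with WT 4 left out.

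*sox3* was the most highly counted of the 3 genes, with 4763 to 8025 reads per library. It had 296.4, 247.1 and 239.5 CPM in double mutants 1 to 3, 243.6, 206.4 and 202.3 CPM in single mutants 1 to 3, 175.8, 169.2 and 190.6 CPM in WT 1–3 and 221.4 CPM in WT 4. The double mutants were above all 4 WT libraries and the single mutants above WT 1–3 without overlap, while WT 4 lay within the range of the single mutants. Of all genes tested, 16.2% had the 3 double mutants above all 4 WT libraries, and 10.5% had the 3 single mutants above WT 1–3. The order of the means was double mutants (261 ± 30.9), single mutants (217 ± 22.8) and WT 1–3 (179 ± 10.9, SD, n = 3 each). Double and single mutants overlapped, since single mutant 1 was above double mutant 3. This overlap, and the place of WT 4 within the range of the single mutants, rest on the scaling of single mutant 1. Its TMM factor was 0.887, against 1.017 in double mutant 3 and 1.009 in WT 4.

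*otx2b* had 728 to 1719 reads per library. Its level was 27.11, 29.85 and 28.13 CPM in double mutants 1 to 3, 45.73, 46.49 and 43.46 CPM in single mutants 1 to 3, 41.28, 39.89 and 43.25 CPM in WT 1–3 and 24.92 CPM in WT 4. The libraries fell into a low group, the double mutants and WT 4, and a high group, the single mutants and WT 1–3. Of all genes tested, 25% had the double mutants and WT 4 below WT 1–3, and 18.1% had the double mutants below the single mutants. The share of genes with the whole split was not counted. Within the low group all 3 double mutants were above WT 4, as they were for *sox3* and for 27% of all genes tested. Within the high group the single mutants were above WT 1–3, as for 10.5% of all genes tested. The gap between single mutant 3 and WT 3 was smaller than the SD of either group. *otx2b* varied least between replicates, with a coefficient of variation of 4.89% in the double mutants, 3.48% in the single mutants and 4.08% in WT 1–3.

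*prdm1a* had 1481 to 4407 reads per library. It had 72.91, 51.71 and 67.60 CPM in double mutants 1 to 3, 87.47, 119.5 and 89.56 CPM in single mutants 1 to 3, 106.5, 109.2 and 98.53 CPM in WT 1–3 and 54.94 CPM in WT 4. As with *otx2b*, the double mutants and WT 4 were below all other libraries, a split whose share among all genes was not counted. Of its parts, double mutants and WT 4 below WT 1–3 held for 25% of all genes tested. Double mutants below single mutants held for 18.1%. For *prdm1a* the groups on each side of the split overlapped. Double mutant 2 was below WT 4 and double mutants 1 and 3 above it. Single mutant 2 was above every WT library, while single mutants 1 and 3 were below WT 1–3. The coefficient of variation was 17.2% in the double mutants, 18.1% in the single mutants and 5.28% in WT 1–3.

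**Figure D1:**
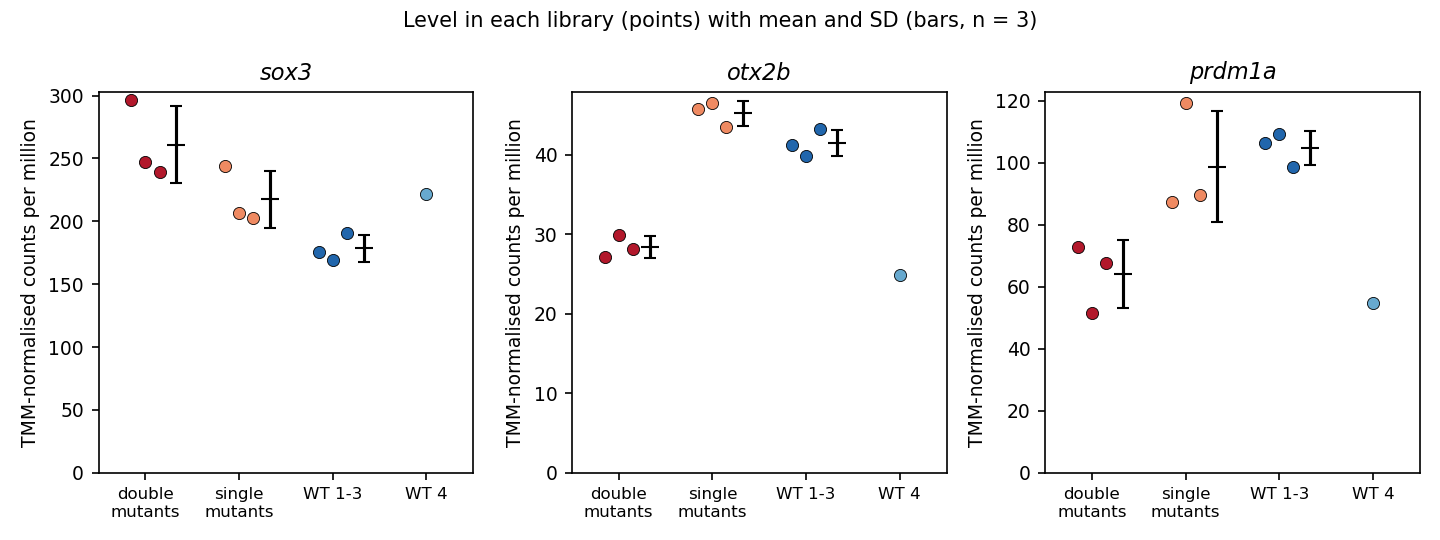
Normalized level of *sox3*, *otx2b* and *prdm1a* (CPM, vertical axes) in the double mutants, single mutants, WT 1–3 and WT 4. Points are libraries and bars the mean and SD of 3 libraries; *otx2b* and *prdm1a* are at 24.9 and 54.9 CPM in WT 4, on the side of the double mutants, and *sox3* is highest in the double mutants.

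In the double mutants none of the 3 genes passed the test in the model with the set (0 of 3, against 2.31% of all genes tested). All 3 estimates were above zero. The log2 fold change against WT was 0.24 for *sox3* (SE 0.18, 95% interval −0.16 to 0.64, adjusted p = 0.70, by the quasi-likelihood test of edgeR with Benjamini-Hochberg adjustment over all genes tested). For *otx2b* it was 0.19 (SE 0.14, −0.12 to 0.50, adjusted p = 0.70), and for *prdm1a* 0.22 (SE 0.23, −0.30 to 0.74, adjusted p = 0.78). None had an unadjusted p under 0.05, and DESeq2 called none (lowest adjusted p = 0.57). Each of these values rests on 1 WT library. That library was grouped with the double mutants on marker values that include those of these 3 genes. Small estimates for the 3 genes were thus made likely in advance. The test with the set therefore cannot decide whether these genes changed in the double mutants.

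Without the set, where all 4 WT libraries form the reference, *sox3* was higher in the double mutants, by 0.46 on the log2 scale (SE 0.14, adjusted p = 0.036 from edgeR). It was the 1 of 3 genes that passed, in a model that called 24.1% of all genes tested, 11% as higher. The estimates of the other two turned below zero, −0.40 for *otx2b* (SE 0.18, interval −0.78 to −0.01, adjusted p = 0.11) and −0.53 for *prdm1a* (SE 0.24, interval −1.05 to 0.00, adjusted p = 0.11). With WT 4 left out, all 3 passed: 0.55 for *sox3* (SE 0.12, adjusted p = 0.0074), −0.55 for *otx2b* (SE 0.10, adjusted p = 0.0026) and −0.71 for *prdm1a* (SE 0.16, adjusted p = 0.0076). In that comparison 43.5% of all genes passed, 22.3% as higher and 21.3% as lower, and the double mutants differ from WT 1–3 by genotype and by the set at once, which cannot be told apart. The estimate for *sox3* was thus above zero in the double mutants under each of these choices of WT libraries. It passed under the last 2 of them and not with the set, so passing depended on the handling of WT 4. For *otx2b* and *prdm1a* the direction itself depended on WT 4. Without the set, WT 1–3 are part of the reference, so genotype and set are not told apart there either.

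In the single mutants, too, none of the 3 genes passed (0 of 3, against 0.69% of all genes tested). *sox3* came nearest, at 0.28 on the log2 scale against WT 1–3 (SE 0.12, 95% interval 0.01 to 0.56, unadjusted p = 0.046, edgeR adjusted p = 0.47). *otx2b* had 0.12 (SE 0.10, −0.09 to 0.34, adjusted p = 0.67) and *prdm1a* −0.08 (SE 0.16, −0.44 to 0.28, adjusted p = 0.86). DESeq2 called none, with a lowest adjusted p of 0.40. The comparison does not involve WT 4 in this model. Without the set, when WT 4 joins the reference, the values were 0.20 for *sox3*, 0.28 for *otx2b* and 0.10 for *prdm1a* (adjusted p = 0.79, 0.75 and 0.95), in a model that called 0.557% of all genes, so that the small difference in *prdm1a* changed sign.

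**Figure D2:**
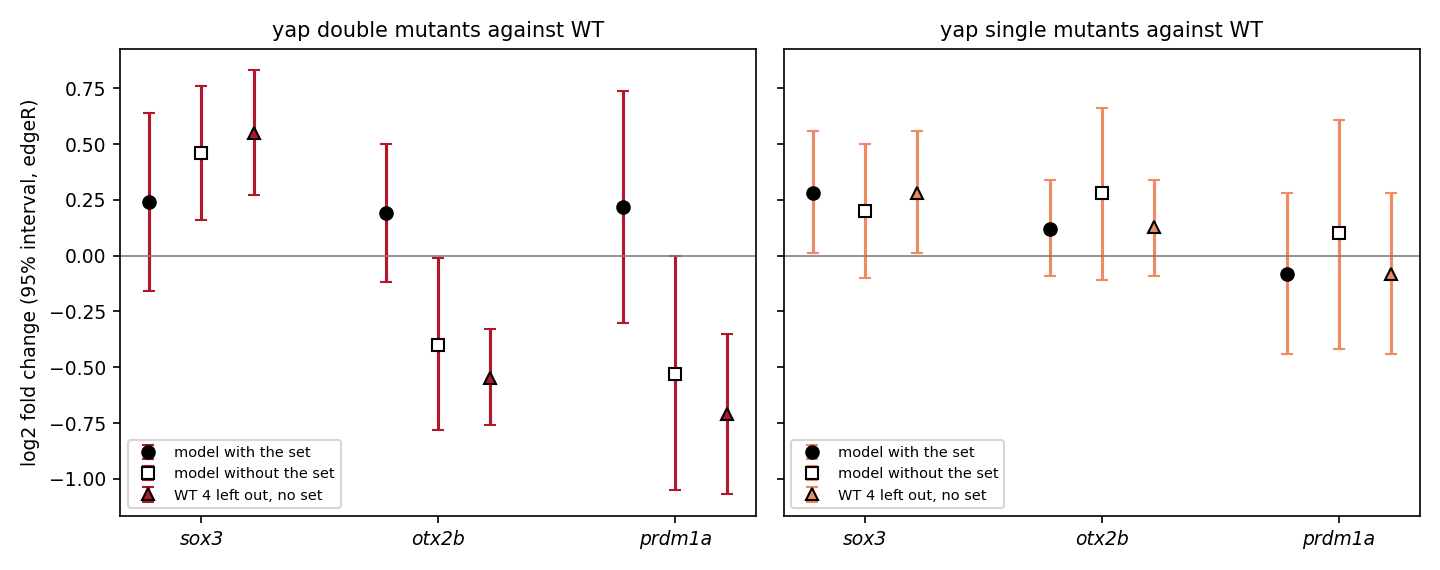
Log2 fold change of the 3 genes against WT (vertical axis, 95% interval from edgeR) in the double mutants (left) and the single mutants (right), in the model with the set, the model without it, and with WT 4 left out. In the double mutants the estimates for *otx2b* are 0.19, −0.40 and −0.55 and those for *prdm1a* 0.22, −0.53 and −0.71, while *sox3* stays above zero.

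Whether both mutants changed to a different extent was tested as the difference of their log2 fold changes, double minus single. With the set it was −0.05 for *sox3* (interval −0.53 to 0.43), 0.06 for *otx2b* (−0.31 to 0.44) and 0.30 for *prdm1a* (−0.33 to 0.94), each with an adjusted p of 1 from edgeR. None of the 3 had an unadjusted p under 0.05, and 0.0303% of all genes tested passed. These differences contain the double mutant estimates with the set. That set was read in part from the values of these genes, so the test cannot decide the question for them. Taken directly, the double mutants were below the single mutants without overlap for *otx2b* and *prdm1a*, as were 18.1% of all genes tested. Without the set that difference was −0.67 for *otx2b* (SE 0.19, adjusted p = 0.060) and −0.63 for *prdm1a* (SE 0.25, adjusted p = 0.11), and 0.26 for *sox3* (SE 0.15, adjusted p = 0.22), in a model that called 1.92% of all genes. With WT 4 left out, which narrows the estimated spread, the differences for *otx2b* and *prdm1a* passed (adjusted p = 0.0027 and 0.022), among 24.7% of all genes that passed and 13.3% that passed as lower. No set holds both mutants.

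WT 4 was then compared with WT 1–3 within the wild type, as a description with no test, since WT 4 was set apart by expression values and not by a label. *prdm1a* in WT 4 was 0.525 times the mean of WT 1–3 and *otx2b* 0.601 times, while *sox3* was 1.24 times that mean. On the log2 scale these are −0.93, −0.73 and 0.31, beside an SD among WT 1–3 of 0.08, 0.06 and 0.09. A fall past 1.5-fold was thus found for 2 of the 3 genes and for 16.2% of all genes tested. Of all genes tested, 7.07% were lower still than *prdm1a* in this library and 11.4% lower than *otx2b*, whereas 31.5% were higher still than *sox3*. The values that set WT 4 apart include those of these 3 genes, so the ranks are no measure of rarity. All 3 double mutants and WT 4 lay below WT 1–3 for *otx2b* and *prdm1a*, as for 25% of all genes, and above them for *sox3*, as for 27.1%.

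The ratio of 2 genes' reads within a library depends on no scaling. There were 0.0915 to 0.121 *otx2b* reads for each *sox3* read in the double mutants, 0.188 to 0.225 in the single mutants, 0.227 to 0.236 in WT 1–3 and 0.113 in WT 4. *prdm1a* reads per *sox3* read were 0.209 to 0.282 in the double mutants, 0.359 to 0.579 in the single mutants, 0.517 to 0.645 in WT 1–3 and 0.248 in WT 4. For both ratios WT 4 fell inside the range of the double mutants. *prdm1a* reads per *otx2b* read were more even, with 2.27 ± 0.49 in the double mutants, 2.18 ± 0.34 in the single mutants and 2.53 ± 0.23 in WT 1–3 (SD, n = 3 each), and 2.20 in WT 4. The highest of the 10 libraries exceeded the lowest 1.58-fold in this ratio, against 1.87-fold in *otx2b* CPM and 2.31-fold in *prdm1a* CPM. These ratios compare reads and are not corrected for gene length.

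**Figure D3:**
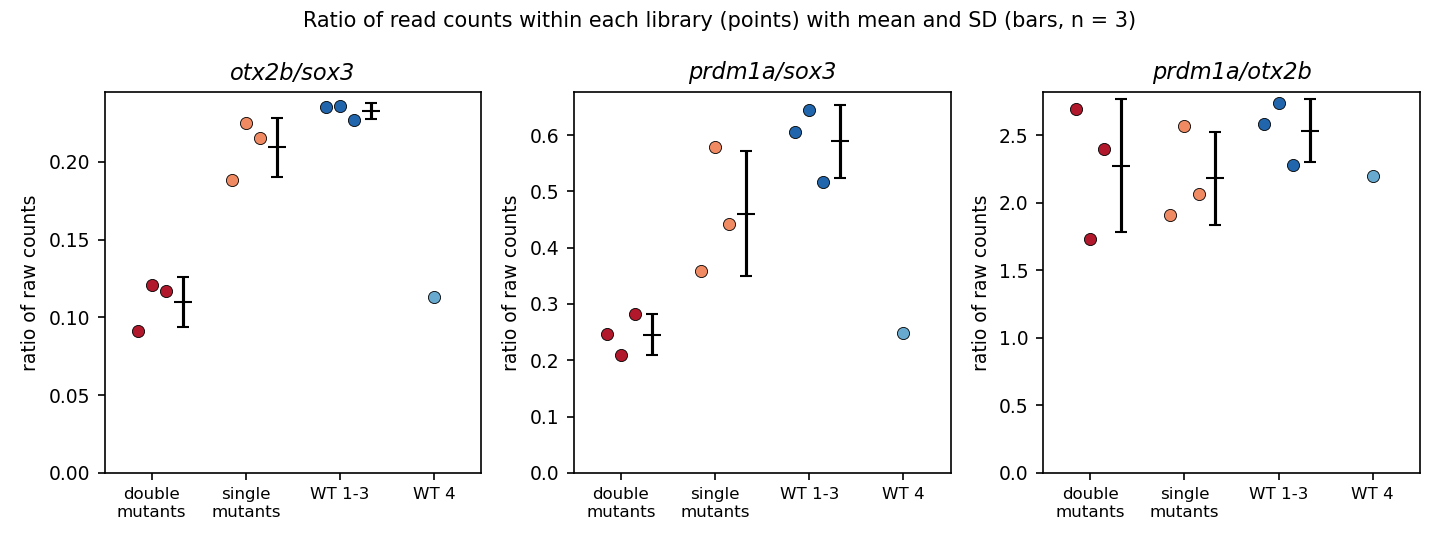
Ratio of raw read counts of 2 genes within each library (vertical axes) in the double mutants, single mutants, WT 1–3 and WT 4. Points are libraries and bars the mean and SD of 3 libraries; WT 4 is at 0.113 *otx2b* and 0.248 *prdm1a* reads per *sox3* read, within the double mutants, and the ratio of *prdm1a* to *otx2b* overlaps between double mutants, single mutants and WT 1–3.

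Pearson's r of log2 CPM between *prdm1a* and *otx2b* was 0.851 over the 10 libraries and −0.149 over the 6 libraries of WT 1–3 and the single mutants, a description in which all points share the libraries. Between *otx2b* and *sox3* r was −0.585 over 10 libraries and 0.864 over those 6, and between *prdm1a* and *sox3* it was −0.645 and −0.546. The set was read from marker values that include both *prdm1a* and *otx2b*, and it holds all double mutants. Set and genotype therefore cannot be told apart in the r over 10 libraries. Over the 6 libraries *otx2b* ran only from 39.89 to 46.49 CPM, too narrow a range for r to show or exclude a likeness.

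Among the 2108 other tested genes with a symbol, those most like *sox3* over the 10 libraries were *rbp5*, a retinol binding protein gene, *smim4*, *oxct1a*, an enzyme of ketone body use, *efna1b*, an ephrin ligand of Eph receptors, and *pin4*, a prolyl isomerase gene, with r of 0.976 to 0.988. Within the 6 libraries of WT 1–3 and the single mutants r was 0.949 to 0.972 for these 5. They were chosen over 10 libraries that include these 6, so this is no separate support. *rbp5* averaged 204 CPM in the double mutants, 133 in the single mutants, 82.9 in WT 1–3 and 142 in WT 4, the order of *sox3*. Those most like *otx2b* were *chrna4b*, a nicotinic receptor subunit, *etv5a*, an ETS factor induced by FGF signalling, *VAV3*, *bicc1a*, an RNA binding protein, and *ccdc88b* (r of 0.927 to 0.973). In the 6 libraries their r with *otx2b* spread from −0.279 to 0.728. *ccdc88b* averaged 0.796 CPM in the double mutants, 38.9 in the single mutants, 41.0 in WT 1–3 and 1.20 in WT 4, so that WT 4 and the double mutants shared a near absence of this transcript. The 5 genes most like *prdm1a* were *etv5a*, *shha*, the Sonic hedgehog gene of the axial midline, *fzd1*, a Wnt receptor, *lrfn5b* and *bicc1a* (r of 0.903 to 0.938 over 10 libraries and −0.175 to 0.758 over the 6). Symbols came from the study's tables, which include its lists of differentially expressed genes, and the search is limited to the genes named there.

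The remaining ectoderm markers were set against the 3 genes. They are *gata2a* and *tp63*, factors of the epidermal lineage, *foxi1* and *tfap2a*, factors of non-neural ectoderm, *dlx3b* of the neural plate border, and *bmp2b* and *chrd*, a BMP ligand and the BMP antagonist Chordin. In the double mutants 3 of these 7 fell in the model with the set and none rose, where 2.02% of all genes fell: *gata2a* with a log2 fold change of −1.22 (adjusted p = 0.0051), *tp63* with −1.12 (adjusted p = 0.0072) and *dlx3b* with −0.87 (adjusted p = 0.011, all from edgeR). The median of the 7 was −0.76, beside 0.01 over all genes. Without the set *foxi1* and *bmp2b* joined them, 5 of 7, where 13.1% of all genes fell, and the same 5 fell with WT 4 left out, where 21.3% of all genes fell. *gata2a* averaged 95.3 CPM in the double mutants, against 232 in WT 1–3 and 223 in WT 4, and *tp63* averaged 39.4 CPM in the double mutants, against 87.9 in WT 1–3 and 85.7 in WT 4. For *gata2a* and *tp63*, WT 4 lay near WT 1–3, unlike for *otx2b* and *prdm1a*. The log2 of WT 4 over WT 1–3 was also small for *bmp2b* (−0.02) and *foxi1* (−0.10). It was 0.38 for *dlx3b*, 0.37 for *tfap2a* and −0.47 for *chrd*. The fall of *dlx3b* in the double mutants was accordingly smaller with WT 4 left out, at −0.49. In the single mutants *gata2a* (−0.78, edgeR adjusted p = 0.018) and *tp63* (−0.74, adjusted p = 0.025) fell among the 7, where 0.6% of all genes fell. The median of the 7 was −0.53, beside 0.02 over all genes. The same 2 of 7 fell without the set and with WT 4 left out, where 0.521% and 0.588% of all genes fell.

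Of further neural plate genes, 3 of the 52 in a list of general knowledge could be paired with an identifier. None of the 3 passed in either mutant with the set. In that model 2.31% of all genes passed in the double mutants and 0.69% in the single mutants. *wnt8b*, a Wnt ligand of the brain, had a log2 fold change of 0.38 in the double mutants (adjusted p = 0.66) and 0.62 in the single mutants (adjusted p = 0.23), and *hoxb1a*, a hindbrain Hox gene, had 0.66 (adjusted p = 0.80) and 0.84 (adjusted p = 0.59). *elavl3*, an RNA binding protein gene of early neurons, had −0.41 in the double mutants (adjusted p = 0.86) and 0.28 in the single mutants (adjusted p = 0.85, all from edgeR), and both signs turned without the set, to 0.37 in the double mutants and −0.12 in the single mutants. Their medians were 0.38 in the double mutants and 0.62 in the single mutants, and 3 genes do not describe the neural plate. None of the 3 passed without the set or with WT 4 left out either, with *elavl3* at 0.76 in the double mutants in that last case (adjusted p = 0.26). In the double mutants 24.1% of all genes passed without the set and 43.5% with WT 4 left out. In the single mutants 0.557% and 0.679% passed. Of 19 border and neural crest genes, which include *dlx3b* and *tfap2a* of the ectoderm markers above, 10 were paired. Among these, *dlx3b* was the 1 that passed in the double mutants with the set, as lower, where 2.02% of all genes fell. The median of the 10 was −0.65, beside 0.01 over all genes. Symbols were taken from tables that include the study's lists of differentially expressed genes. The paired genes may thus be in part selected for change in these data, and their median is no fair match to that of all genes. Without the set *dlx3b*, *gata3* and *dlx2* fell, 3 of the 10 (median −0.38), where 13.1% of all genes fell. With WT 4 left out *dlx3b* and *gata3* fell, 2 of the 10 (median −0.18), where 21.3% of all genes fell. That last count was near the share of all genes. The log2 fold change of *gata3* in the double mutants was −0.95 with the set, −1.11 without it and −1.16 with WT 4 left out. In the single mutants none of these 10 passed in any of the 3 models. Of all genes, 0.69% passed with the set, 0.557% without it and 0.679% with WT 4 left out. The median of the 10 was 0.16 with the set or with WT 4 left out and −0.20 without the set.

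*otx2b* and *prdm1a* were also set beside the prechordal plate and axial mesoderm, where both are known to be expressed in other vertebrates. Of 16 such genes 5 were paired: *gsc*, the Goosecoid gene of the organizer, *tbxta*, the notochord factor Brachyury, *shha*, *foxa2* and *chrd*. None passed in either mutant with the set, where 2.31% of all genes passed in the double mutants and 0.69% in the single mutants. Their median log2 fold change in the double mutants was −0.05. *gsc* averaged 33.6 CPM in the double mutants, 51.9 in the single mutants, 55.2 in WT 1–3 and 33.6 in WT 4. *tbxta* averaged 63.2 CPM in the double mutants, 127 in the single mutants, 122 in WT 1–3 and 66.5 in WT 4. It fell in the double mutants without the set (−0.77, adjusted p = 0.032 from edgeR), as the 1 of the 5 that passed, where 13.1% of all genes fell. With WT 4 left out 4 of the 5 fell, all but *chrd*, where 21.3% of all genes fell. *gsc* and *tbxta* thus averaged low in the same groups as *otx2b* and *prdm1a*. The pattern is common, since 25% of all genes tested had WT 4 and all 3 double mutants below WT 1–3. Of the 24 other germ layer markers tested, 4 were past 1.5-fold lower in WT 4 than in WT 1–3 (*pcdh8*, *etv5a*, *tbxta* and *gsc*) and 2 past 1.5-fold higher (*eml2* and *cdx4*), beside 16.2% and 16.7% of all genes tested, so that the count of lower markers was near that of all genes. The part that these tissues had in the levels of *otx2b* and *prdm1a* was not tested.

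**Figure D4:**
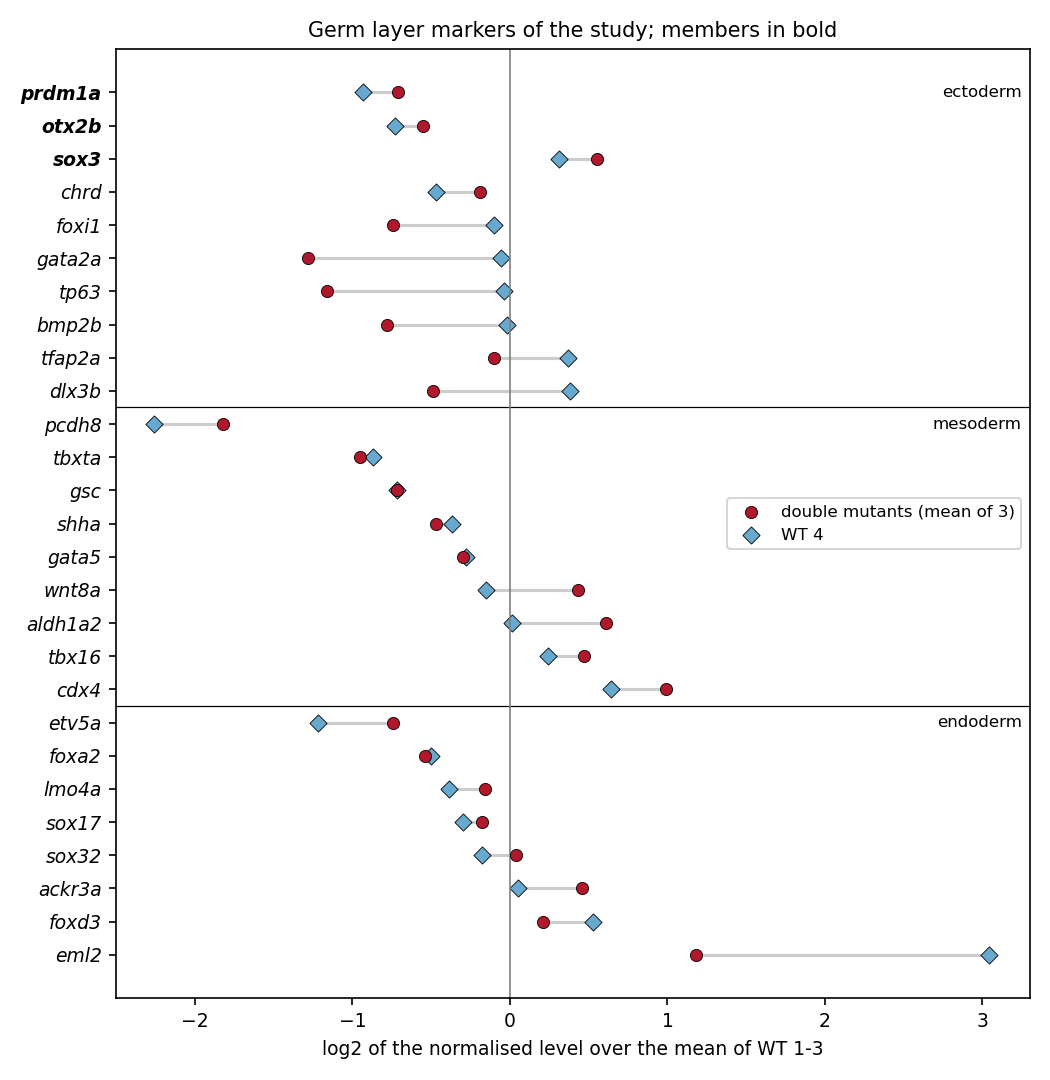
Log2 of the normalized level over the mean of WT 1–3 (horizontal axis) for the 27 germ layer markers tested, in the double mutants (circles, mean of 3) and WT 4 (diamonds), with *prdm1a*, *otx2b* and *sox3* in bold. Both values of a gene share WT 1–3; *otx2b* (−0.55 and −0.73) and *prdm1a* (−0.71 and −0.93) lie with *tbxta* and *gsc*, and *gata2a* and *tp63* are low in the double mutants while WT 4 is near zero.

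The counts of mesoderm and endoderm markers depended on the model. Of 9 mesoderm markers tested, none passed in the double mutants with the set (2.31% of all genes did). Without it *tbxta* and *pcdh8* fell and *cdx4* and *aldh1a2* rose, 4 of 9 where 24.1% of all genes passed. With WT 4 left out 4 fell and 2 rose, where 43.5% passed. Of 8 endoderm markers tested, *eml2* passed as lower with the set (−1.86, adjusted p = 0.043 from edgeR), none passed without it, and with WT 4 left out 2 fell and *eml2* rose (1.18, adjusted p = 0.016). *eml2* averaged 6.59 CPM in the double mutants, against 2.92 in WT 1–3 and 24.0 in WT 4, so its direction turned with the WT library. *myod1*, a muscle factor of later stages, had 0 to 4 reads per library and was not tested. In the single mutants no mesoderm or endoderm marker passed in any of these models, where 0.69% of all genes passed with the set, 0.557% without it and 0.679% with WT 4 left out.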

How the data were processed

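Reads were trimmed by the authors with Trimmomatic 0.39, which cut 12 bases from the start and discarded those shorter than 50 bases or averaging a quality below 20. After removal of rRNA (sortmerna 2.1) they were aligned to ASM223467 with HISAT2 2.1, and alignments of quality 60 or more were counted per gene of Ensembl 99 with HTSeq. The strand setting is not given in the sources used here, and reads of overlapping genes may be uncertain. The deposited values are raw counts per gene without normalization or batch correction. Reads in no gene (10.6% to 11.3%) and ambiguous reads (7.94% to 9.86%) were left out of library sizes.

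The 16513 genes whose counts averaged 10 or more were tested with edgeR 4.0.16 (R 4.3.3; TMM, quasi-likelihood test, Benjamini-Hochberg, adjusted p under 0.05). Levels are TMM-scaled CPM (prior count 2 on the log2 scale). Scripts were tested on simulated data. Alternatives were DESeq2 1.42.0, RLE factors, no filter, no set, each set alone, a replicate block, each library left out and, added after seeing the data, no scaling factors and the marker and list counts without WT 4. Counting error alone was 1.12% to 1.45% for *sox3* and 2.41% to 3.71% for *otx2b*.

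Members and lists were chosen with earlier results of these data known. Named genes are the members, *yap1*, *yap1b*, the study's other germ layer markers, the 5 genes with a symbol most like each member by Pearson's r, and up to 4 genes of each list with the smallest p. Symbols came from the study's tables (2193 genes), which include its lists of differentially expressed genes. No promoter or protein sequence is shown, and some of the study's markers are not reported here.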

Additional observations from a re-analysis of the deposited data

Results flagged for a closer look

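Among the 4 WT libraries, 29 genes were checked for a library far from the others. The measure was the gap to the nearest library as a share of the whole range, set against Dixon's limit for 4 values. Of these genes, 7 exceeded that limit. The genes include markers from whose values WT 4 had been set apart, so the count is a description without a chance level. WT 4 was the far library each time, and none of *sox3*, *otx2b* and *prdm1a* was among the 7. It was nevertheless below WT 1–3 for *otx2b* (24.92 CPM, against 39.89 to 43.25) and *prdm1a* (54.94 CPM, against 98.53 to 109.2). Missing the limit therefore does not place their WT 4 levels with WT 1–3. *yap1* had a gap of 0.915 of the range (168 CPM in WT 4, against 277.9 to 288.0 in WT 1–3). The others below WT 1–3 were *pcdh8* with 0.939 (5.27 CPM, against 24.7 to 25.9) and *etv5a* with 0.831 (73.3 CPM, against 162 to 180.3). Above WT 1–3 were *tfap2a* with 0.949 (256 CPM, against 197 to 200.1), *eml2* with 0.914 (24.0 CPM, against 2.00 to 3.90), *dlx3b* with 0.885 (158 CPM, against 119 to 124) and *tbx16* with 0.863 (124 CPM, against 103 to 106).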

How the results depend on the processing

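The double mutant results changed with the handling of WT 4. Without the set the log2 fold changes were 0.46 for *sox3*, −0.40 for *otx2b* and −0.53 for *prdm1a*, and the double minus single differences 0.26, −0.67 and −0.63. *prdm1a* in the single mutants turned to 0.10. DESeq2, RLE factors, no filter on low counts, no scaling factors and each set alone kept the direction and the side of the threshold of every value they gave for the 3 genes.

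Residuals of libraries with equal replicate numbers correlated from −0.062 to 0.49, and those with unequal numbers from −0.414 to 0.355. The ranges overlap, and the highest value belonged to an equal pair, single mutant 1 and double mutant 1. Whether equal numbers pair the libraries is not settled by these values. With the replicate block in place of the set the double mutant values were 0.54, −0.55 and −0.71 (adjusted p = 0.0077, 0.0055 and 0.012, edgeR) and the double minus single differences 0.26, −0.67 and −0.62. Only WT 4 has the replicate number 4, so the block takes WT 4 out of these comparisons. The double mutant values are close to those with WT 4 left out (0.55, −0.55 and −0.71) and are no separate result. Genotype and set cannot be told apart in them.

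Leaving out 1 library gave, in the double mutants, 0.14 to 0.55 for *sox3*, −0.55 to 0.22 for *otx2b* and −0.71 to 0.36 for *prdm1a*, where 0.55, −0.55 and −0.71 came without WT 4. With WT 4 kept the ranges were 0.14 to 0.31, 0.16 to 0.22 and 0.12 to 0.36. In the single mutants they were 0.18 to 0.33, 0.10 to 0.16 and −0.24 to −0.02. For the double minus single difference they were −0.13 to 0.26, −0.67 to 0.12 and −0.63 to 0.47, and *sox3* was above zero at 0.07 when single mutant 1 was left out, at 0.02 for double mutant 2 and at 0.04 for double mutant 3.

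Counts of all genes called moved more. In the single mutants 114 became 441 with DESeq2 and 26 to 172 with 1 library left out. In the double mutants 381 became 3982 without the set, 731 with DESeq2, 7495 with the block, 90 with each set alone and 213 to 7182 with 1 library left out. For the difference 5 became 317 without the set, 141 with DESeq2, 4398 with the block and 0 to 4081 with 1 library left out. The 7182 and 4081 genes came with WT 4 left out. When another library was left out and WT 4 kept, the counts were 213 to 574 in the double mutants and 0 to 15 for the difference. The cause was not tested. The double mutant values with the set rest on 1 WT library.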
